A study of Mus musculus with 18 samples.

Results

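Plasma cells were compared with naive B cells across the full span of B cell differentiation, in control mice, in 6 of the 18 RNA libraries of the study. The 3 plasma cell libraries (replicates 1, 3 and 4) and the 3 naive libraries (replicates 1, 2 and 3) were chosen by their titles and genotype labels. All 6 came from spleens of B6.129P2(C) mice that carry 1 allele of a Cre recombinase active in B lineage cells, which both groups share. The plasma cells were sorted 72 h after 50 µg lipopolysaccharide (LPS) in 100 µl was given into the tail vein, as cells without Zombie yellow, F4/80, CD11b or Thy1.2 staining that carried CD138 and low or intermediate B220. The naive B cells came from uninfected mice and were enriched with CD43 beads and not sorted. Cell type, LPS and isolation method therefore changed together and cannot be told apart. The same contrast was also taken in 6 libraries of G9afl/fl mice with the same Cre allele (KO), built to delete the histone methyltransferase G9a, gene Ehmt2, in B lineage cells. Activated B cells of control mice (B220+GL7+, sorted 72 h after LPS, 3 libraries) are given as values only. Each library was made from 1000 cells, and the labels do not say that replicates came from separate animals. The tests therefore speak only to the variation among these libraries, which may be technical.

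A naive B cell is a resting cell that carries its antibody as a surface receptor, presents antigen on MHC class II and circulates between lymphoid organs. A plasma cell no longer relies on that receptor and secretes antibody, for which it enlarges the endoplasmic reticulum (ER), where secreted proteins are folded, glycosylated and checked. The switch is known to be driven by the transcription factors Blimp-1 (gene Prdm1), Irf4 and Xbp1, while Pax5, Bach2 and Bcl6 hold the B cell state. Newly formed plasmablasts still divide, whereas long-lived plasma cells do not.

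Levels are given as scaled RPKM, the authors' reads per kilobase of gene relative to the reads of the library, after scaling between libraries. Group levels with ± are means and SD over 3 libraries. Changes are plasma cells against naive B cells on the log2(scaled RPKM + 1) scale with their SE, and a gene is called when its adjusted p in limma is under 0.05. Of 12646 tested genes, 2780 were higher in plasma cells (22.0%) and 5236 were lower (41.4%), 63.4% in all, and the median change of all tested genes was -0.37. At least 2-fold changes were called in 1756 higher (13.9%) and 3951 lower (31.2%) genes, and at least 4-fold changes in 651 higher (5.15%) and 1034 lower (8.18%) genes. The higher and lower genes differed in level. Among the higher genes, 71.4% averaged at least 20 RPKM in plasma cells. Of the lower genes, 1292 (24.7%) averaged at least 20 RPKM in naive B cells, while 45.6% stayed under 5 RPKM there. The split depended on the level. When only the 4555 genes averaging at least 20 RPKM in 1 group were tested, 2002 were higher and 1301 lower. Their median change was 0.28, so shares and medians of all tested genes are those of a set with many low genes. The split also depended on the scaling. Quantile normalization, which gives every library the same distribution of values, called 2836 higher and 2714 lower genes, so that 51.1% of called genes were higher instead of 34.7%, and moved the median change of all genes to -0.03.

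The naive libraries carried low signal in many genes that B lineage cells are not known to use. The 100 odorant and vomeronasal receptor genes in the table had medians of 0.480, 0.540 and 0.586 RPKM in the plasma cell libraries, against 4.37, 3.87 and 5.26 RPKM in the naive libraries, and 89 of them were called lower and 0 higher. Their highest naive mean was 18.9 RPKM. The median SD of a gene across replicates was 0.13 on the log2 scale in plasma cells and 0.37 in naive B cells, and replicates correlated across genes at 0.991 to 0.994 in plasma cells and 0.908 to 0.928 in naive B cells. Steps between low values put the plasma cell libraries at 5.92 to 6.89 M reads and the naive libraries at 3.76 to 4.11 M, the naive estimates being unclear. The part of this low signal in the 2390 lower genes under 5 RPKM was not tested, so the genes described here are mainly those above 20 RPKM in their higher group. Some described falls start from naive means under the highest receptor mean of 18.9 RPKM, among them Fcrl5, Bach2, Bcl2, Slc2a3, Tusc3, Cdkn1b and Kdm3b. The part of the low signal in these falls was not tested either.

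Markers of other blood cells stood above the plasma cell level in the naive preparations, which were enriched but not sorted. All 5 measured erythroid markers were lower in plasma cells, where they summed to 1.76 to 2.46 RPKM, against 350.2 to 453 RPKM in naive libraries. Nearly all of it was globin messages, of the alpha globin Hba-a2 and the beta globins Hbb-bs and Hbb-b2. Reads can be shared between the similar beta globin genes. All 9 platelet markers, 10 of 11 monocyte and macrophage markers, 5 of 6 T cell markers, 4 of 4 neutrophil markers and 4 of 7 dendritic cell markers were lower in plasma cells too, and 0 of 2 NK cell markers were called. Of all tested genes 41.4% were lower, as were 89 of the 100 odorant and vomeronasal receptor genes. Apart from Lck (23.3 RPKM), the T cell and neutrophil markers had naive means under the highest receptor mean of 18.9 RPKM. Under quantile normalization 4 platelet, 2 T cell and 2 neutrophil markers were called lower. In KO libraries 7 of 9 platelet, 5 of 11 monocyte and macrophage, 3 of 6 T cell, 1 of 4 neutrophil and 2 of 7 dendritic cell markers were lower. The platelet markers summed to 2.34 to 6.60 RPKM in plasma cells and 68.1 to 189.6 RPKM in naive B cells. Those of monocytes and macrophages summed to 17.0 to 32.2 RPKM in plasma cells and 144 to 167 RPKM in naive B cells. Mpeg1, counted here as a macrophage marker, was listed at 0 in all 3 plasma cell libraries. It averaged 3.54 RPKM in naive B cells and 9.10 RPKM in the sorted activated B cells, so its level is not particular to the naive preparation. Itgam (CD11b) and Adgre1 (F4/80) encode proteins that the plasma cell sort gated out. The T cell markers summed to 2.18 to 5.40 RPKM in plasma cells and 23.2 to 81.5 RPKM in naive B cells. Neutrophil markers summed to 1.40 to 2.70 RPKM in plasma cells and 17.2 to 30.5 RPKM in naive B cells, and dendritic cell markers to 8.21 to 12.1 RPKM in plasma cells and 31.4 to 47.8 RPKM in naive B cells. The part of the low naive signal in these markers was not tested. The part of other blood cells in genes that they share with naive B cells was not tested either.

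**Figure D1:**
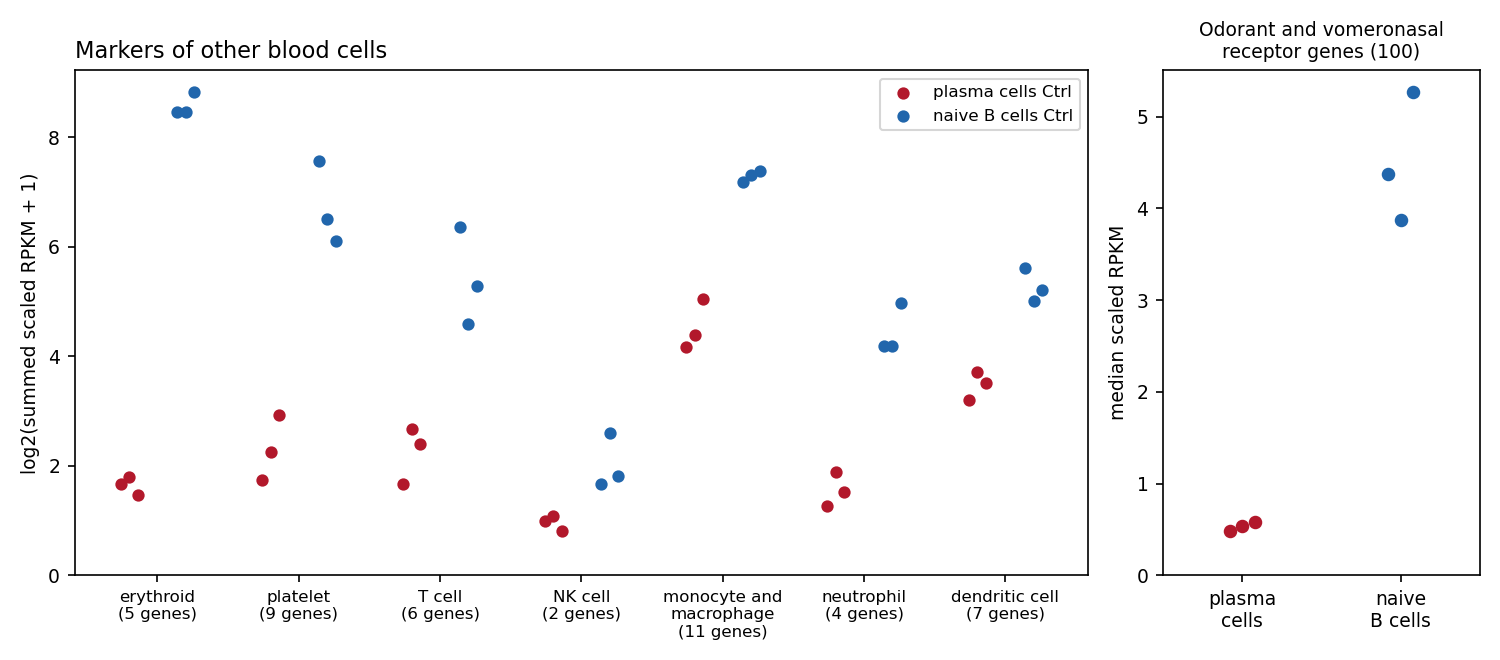
Summed scaled RPKM of markers of 7 other blood cell types (left, log2 scale) and the median scaled RPKM of 100 odorant and vomeronasal receptor genes (right), with plasma cells in red left of naive B cells in blue and 1 point per library, n = 3 each. Erythroid markers sum to 1.76 to 2.46 RPKM in plasma cells and 350.2 to 453 RPKM in naive B cells, and the receptor medians are 0.480 to 0.586 RPKM in plasma cells and 3.87 to 5.26 RPKM in naive B cells.

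The labels matched the markers of both cell types. All 10 plasma cell markers were higher in plasma cells, and all 7 markers of naive follicular B cells were lower. Sdc1, which encodes the CD138 used to sort the plasma cells, had 162, 187 and 163 RPKM in plasma cells, against 8.40, 4.67 and 10.02 RPKM in naive B cells. The groups did not overlap, but this gene was part of the gate and is no independent finding. Ptprc, the gene of B220 and CD45, had levels of 107, 98.9 and 127 RPKM in plasma cells and of 155, 161 and 133 RPKM in naive B cells, log2 change -0.43 ± 0.13 SE, adjusted p = 0.019, a call that was lost without plasma cell replicate 1 (adjusted p = 0.073), plasma cell replicate 3 (0.0733) or naive replicate 2 (0.0559). Low or intermediate B220 was part of the gate too, so the fall of Ptprc is no independent finding either. Spn, the gene of the CD43 used to remove cells from the naive preparation, had 11.6, 14.1 and 10.9 RPKM in the plasma cell libraries, against 1.19, 0.829 and 4.86 RPKM in the naive libraries. Of 10 marginal zone B cell markers, 7 were lower (70%, against 41.4% of all tested genes). Mzb1 and Cd9 were higher (20%, against 22.0% of all tested genes). Among 7 markers of B-1 cells, Il10 and Spn were higher (28.6%, near the share of all tested genes) and Cd300lf was lower (14.3%). Spn is the gene of the bead target, so its difference is no independent finding.

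Genes that define plasma cells rose. Of 37 measured genes of the plasma cell program, 29 rose in plasma cells, 2 fell and 6 were not called, with a median change of 2.28 against -0.37 for all tested genes. Prdm1, the repressor that directs B cells to the plasma cell fate (chr10:44437177-44528501), had 108, 102 and 97.3 RPKM in plasma cells, against 0.746, 0.786 and 3.15 RPKM in naive B cells. No naive library came near a plasma cell library (log2 change 5.46 ± 0.32 SE, adjusted p = 1.78e-06). Xbp1, the transcription factor that drives the secretory machinery, had levels of 2252, 2622 and 2282 RPKM in plasma cells and of 70.3, 74.6 and 43.7 RPKM in naive B cells. Its 3 plasma cell values stood apart from the naive values by a wide margin (log2 change 5.26 ± 0.19 SE, adjusted p = 9.72e-08), and activated B cells averaged 402 RPKM. Irf4, which naive B cells already express, had 186, 165 and 193 RPKM in the plasma cell libraries, against 58.3, 98.8 and 70.3 RPKM in the naive libraries. The groups did not overlap (log2 change 1.28 ± 0.18 SE, adjusted p = 3.91e-04), and activated B cells were below both groups at 43.9 RPKM. Bhlha15 (Mist1), a factor of secretory cells, had 209.5, 210.4 and 229 RPKM in plasma cells, against 0, 0.272 and 3.72 RPKM in naive B cells, with 1 naive library listed at 0.

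**Figure D2:**
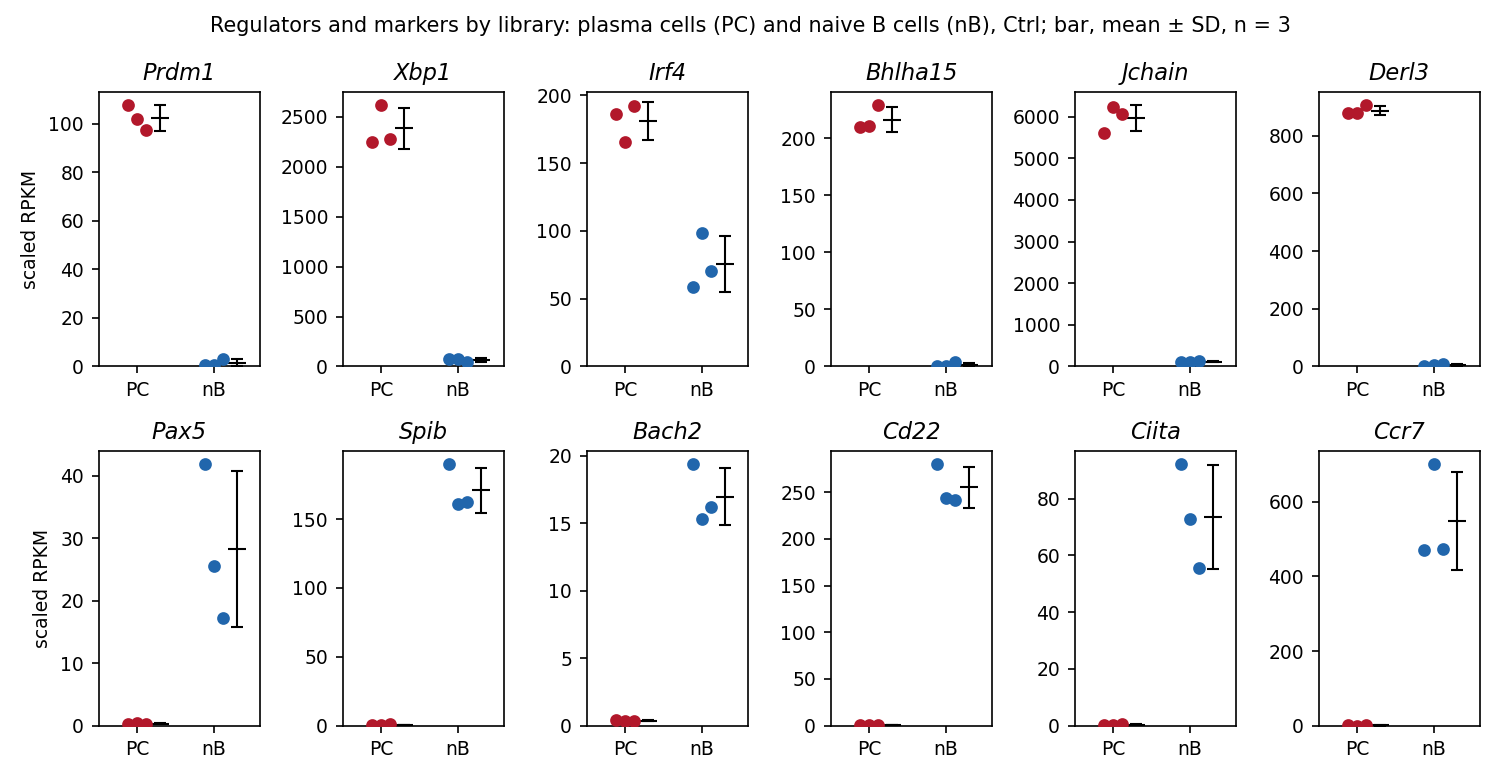
Scaled RPKM in each library for 6 genes that were higher in plasma cells (upper row) and 6 that were lower (lower row), with plasma cells (PC, red) left of naive B cells (nB, blue) and mean ± SD in black, n = 3 each. Prdm1 averages 102 RPKM in plasma cells and 1.56 RPKM in naive B cells, and Pax5 is under 0.5 RPKM in all 3 plasma cell libraries.

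Jchain, the joining chain of secreted IgM and IgA, had levels of 5614, 6231 and 6054 RPKM in plasma cells and of 114, 109.7 and 122 RPKM in naive B cells, log2 change 5.68 ± 0.09 SE, adjusted p = 4.83e-09, the smallest adjusted p of the named genes. It took 1.31% to 1.43% of the summed RPKM of a plasma cell library and 0.0288% to 0.0330% of a naive library. Mzb1, an ER chaperone that helps assemble IgM, had 4164, 4771 and 4338 RPKM in the plasma cell libraries, against 256, 340.1 and 299 RPKM in the naive libraries. Tnfrsf17 (BCMA), the APRIL receptor of plasma cells, had 105, 137 and 115 RPKM in plasma cells, against 9.98, 4.97 and 6.59 RPKM in naive B cells, and activated B cells averaged 0.451 RPKM. The naive libraries were thus above activated B cells for Tnfrsf17, as they were for Sdc1, at levels within the range of the odorant receptor genes. Slpi, a secreted protease inhibitor, had levels of 239.8, 442 and 170.2 RPKM in plasma cells and of 5.38, 10.9 and 10.9 RPKM in naive B cells. Its plasma cell values varied widely, yet the groups did not overlap. Ly6d and Fcrl5, both surface proteins, were the members that fell. Ly6d fell to 1326 ± 75.9 RPKM in plasma cells, against 2162 ± 85.8 RPKM in naive B cells (SD, n = 3 each). Fcrl5 fell to 5.24 ± 1.10 RPKM in plasma cells, against 17.8 ± 6.98 RPKM in naive B cells. Immunoglobulin constant region genes were not analysed here.

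Secretory, metabolic and cell cycle genes were among those that rose most. By the rule of the largest called change with at least 20 RPKM in the higher group, the 15 genes that rose most ran from Derl3 (7.66) to Pycr1 (5.55), and the 15 that fell most ran from Ccr7 (-8.55) to Ms4a4c (-6.37). Derl3, a factor of ER-associated degradation (chr10:75893413-75895941), had 879, 878 and 907 RPKM in the plasma cell libraries, against 0.972, 3.55 and 8.48 RPKM in the naive libraries. Hid1, a protein of the trans-Golgi network, had 199, 209 and 214 RPKM in plasma cells, against 0.853, 0 and 0.0761 RPKM in naive B cells. Plpp5, a lipid phosphatase, rose to 294 ± 20.1 RPKM in plasma cells, against 3.12 ± 3.25 RPKM in naive B cells. Eaf2, a partner of the elongation factor ELL, rose to 244 ± 17.8 RPKM in plasma cells, against 3.50 ± 1.33 RPKM in naive B cells. Metabolic enzymes were among them. Alpl, alkaline phosphatase, rose to 223 ± 6.18 RPKM in plasma cells, against 1.88 ± 2.10 RPKM in naive B cells. Pon3, a paraoxonase, rose to 221 ± 29.5 RPKM in plasma cells, against 1.85 ± 2.39 RPKM in naive B cells. Pycr1, which makes proline, rose to 74.5 ± 5.68 RPKM in plasma cells, against 0.677 ± 0.543 RPKM in naive B cells. Tigit, an inhibitory receptor better known from T and NK cells, had levels of 72.9, 76.6 and 86.2 RPKM in plasma cells and of 0.496, 0.739 and 0 RPKM in naive B cells, and activated B cells averaged 1.52 RPKM. The other genes of this group were Bhlha15, Jchain, the ER and vesicle genes Fkbp11 and Sec24d, and the cell cycle genes Rrm2, Ube2c and Ccna2. The genes that fell most, beside B cell and immediate early genes described further on and 2 globins, were Ltb, Plaur, Rgs1 and Ms4a4c. Ltb, lymphotoxin beta, fell to 2 ± 0.545 RPKM in plasma cells, against 350.5 ± 42.9 RPKM in naive B cells. Rgs1, which dampens chemokine receptor signals, had 0.164, 0.179 and 0.289 RPKM in the plasma cell libraries, against 135, 223 and 40.6 RPKM in the naive libraries, with naive values that varied widely.

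**Figure D3:**
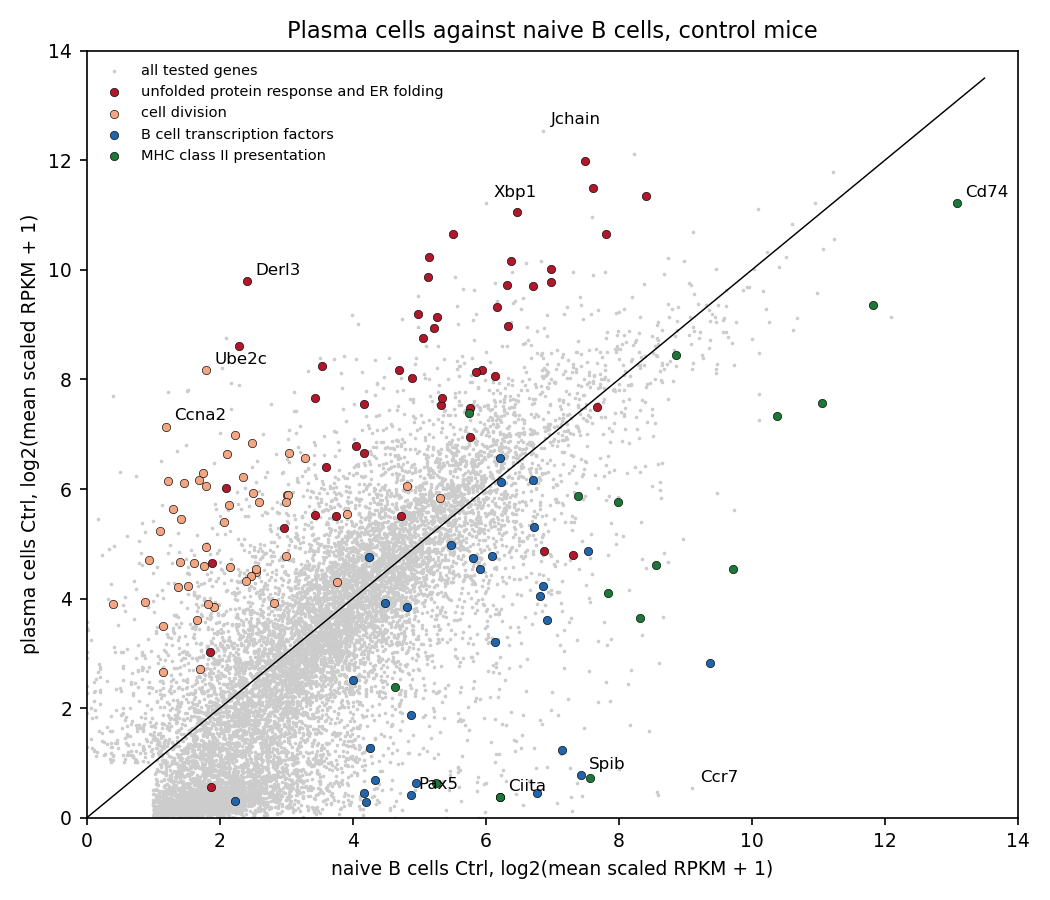
Mean scaled RPKM of every tested gene in plasma cells (vertical axis) and in naive B cells (horizontal axis), both as log2(RPKM + 1), n = 3 libraries each, with 4 gene lists in colour and the line of equal level. Genes of ER folding lie mostly above the line, those of cell division all above it, and B cell transcription factors and MHC class II genes mostly below it, and the dense cloud at the lower left holds genes under 5 RPKM.

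The secretory pathway rose almost as a whole. Of 47 genes of ER folding and the unfolded protein response (UPR), the signalling that matches folding capacity to load, 43 rose and 3 fell, with a median change of 3.01. Of 46 genes of ER translocation and N-glycosylation, 43 rose and 1 fell (median 2.86), and of 50 genes of ER to Golgi vesicle transport, 47 rose and 0 fell (median 2.26). The union of the 3 lists held 143 genes, of which 133 rose, against 22.0% of all tested genes. Together they took 12.8%, 12.7% and 13.3% of the summed RPKM of the plasma cell libraries and 1.86%, 1.92% and 1.87% of that of the naive libraries, a ratio of means of 6.88. No library of either group came near the other group. The exact permutation test over the 6 libraries gave p = 0.1 (two-sided), the smallest that 3 against 3 allows. With the groups fully apart it could give no other value, so it adds nothing to the shares. Activated B cells were between the 2 groups, at 4.01% ± 0.08 (SD, n = 3).

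Chaperones were among the most abundant members. Hsp90b1 (GRP94) had 4105, 3733 and 4323 RPKM in plasma cells, against 146, 176 and 218 RPKM in naive B cells. Hspa5 (BiP), the chief chaperone of the ER lumen, had levels of 2569, 2519 and 2703 RPKM in plasma cells and of 299.7, 358 and 358 RPKM in naive B cells. Calr, calreticulin, had 1616, 1562 and 1643 RPKM in the plasma cell libraries, against 212, 227 and 234 RPKM in the naive libraries. Every plasma cell library stood above every naive library for all 3. For Hsp90b1 the test gave log2 change 4.50 ± 0.14 SE, adjusted p = 5.95e-08, for Hspa5 log2 change 2.94 ± 0.10 SE, adjusted p = 7.80e-08 and for Calr log2 change 2.84 ± 0.09 SE, adjusted p = 5.14e-08. The disulfide isomerases Pdia4 and Pdia6 rose by 3.89 and 3.79, and Txndc5, a related oxidoreductase, by 4.58. Creld2 and Sdf2l1 are small ER proteins induced by ER stress. Creld2 rose to 1617 ± 41.9 RPKM in plasma cells, against 44.4 ± 12.6 RPKM in naive B cells, and Sdf2l1 rose to 1201 ± 57.1 RPKM in plasma cells, against 34.3 ± 2.44 RPKM in naive B cells. Fkbp11, an ER prolyl isomerase, had 371, 446 and 361 RPKM in plasma cells, against 5.19, 3.14 and 3.36 RPKM in naive B cells.

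Sel1l and Syvn1, the scaffold and ubiquitin ligase of the main ER-associated degradation complex, rose by 4.74 and 2.23, and Edem1, which picks out misfolded glycoproteins, by 4.74. The sensors of the UPR also rose, at lower levels than the chaperones. Ern1 (IRE1), the enzyme that splices Xbp1 RNA, had levels of 22.96, 21.8 and 27.3 RPKM in plasma cells and of 0.398, 1.39 and 6.33 RPKM in naive B cells. Atf6 rose to 83.6 ± 8.25 RPKM in plasma cells, against 11.2 ± 1.59 RPKM in naive B cells, and Eif2ak3 (PERK) rose by 0.84. Of the genes downstream of PERK, Atf4, Ddit3 and Ppp1r15a were not higher. Atf4, its transcription factor, averaged 180.0 ± 6.96 RPKM in plasma cells, against 204 ± 6.58 RPKM in naive B cells, and was not called (adjusted p = 0.141). Ddit3 (CHOP), which promotes death under ER stress, fell to 28.1 ± 1.80 RPKM in plasma cells, against 117 ± 12.6 RPKM in naive B cells. Ppp1r15a (GADD34), which restores translation, fell to 26.7 ± 4.29 RPKM in plasma cells, against 157 ± 16.5 RPKM in naive B cells. Ppp1r15a is also counted among the immediate early genes. Pdia5, a disulfide isomerase and the last member that fell, was low in both groups, at 0.469 ± 0.0781 RPKM in plasma cells, against 2.65 ± 2.19 RPKM in naive B cells.

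Promoters of the UPR genes were read for a known ER stress response element (ERSE), bound by NF-Y together with ATF6 or XBP1 in mammals. The list holds known UPR genes, the kind of gene this element is known from. Its share in the list is therefore no independent finding. RefSeq promoters on GRCm38.p6, 250 bases before to 50 after the start, were matched for 10112 tested genes and searched on both strands for CCAAT and CCACG with 9 bases of any kind (N) between them. The element was in 10 of 41 matched UPR promoters (24.4%) and in 20 of all 10112 (0.198%). Of those 20 genes, 12 were called higher, 6 lower and 2 were not called. All 10 UPR genes with the element rose, namely Pdia6, Calr, Hsp90b1, Hspa5, Creld2, Syvn1, Ero1lb, Derl3, Canx and Dnajc3. As 43 of the 47 UPR genes rose in all, this does not set the holders apart from the rest of the list. The 6 lower and 2 not called genes with the element were outside the UPR list. It was in 1 of 35 promoters of the translocation list and in 0 of 42 of the vesicle list, 0 of 41 of the cell division list and 0 of 12 of the MHC class II list. A shorter motif, TGACGTG followed by G or T, searched on both strands, was in 12.2% of UPR promoters, 14.3% of vesicle transport promoters and 1.80% of all. TGACGTG followed by A was not searched, so these shares are of the searched motif only. A match describes letters in the window, not binding. The 3 promoters with the smallest adjusted p are shown, on the strand of the gene, with the element in capitals; where the match is on the opposite strand the capitals read as its reverse complement.
Pdia6, chr12:17266339-17266638, plus strand: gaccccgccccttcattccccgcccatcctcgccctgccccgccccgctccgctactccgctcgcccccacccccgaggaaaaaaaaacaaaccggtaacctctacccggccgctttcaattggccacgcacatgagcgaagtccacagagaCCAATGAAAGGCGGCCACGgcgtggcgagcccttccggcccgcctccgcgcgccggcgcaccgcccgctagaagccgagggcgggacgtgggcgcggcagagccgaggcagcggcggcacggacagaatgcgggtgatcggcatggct
Calr, chr8:84846882-84847181, minus strand: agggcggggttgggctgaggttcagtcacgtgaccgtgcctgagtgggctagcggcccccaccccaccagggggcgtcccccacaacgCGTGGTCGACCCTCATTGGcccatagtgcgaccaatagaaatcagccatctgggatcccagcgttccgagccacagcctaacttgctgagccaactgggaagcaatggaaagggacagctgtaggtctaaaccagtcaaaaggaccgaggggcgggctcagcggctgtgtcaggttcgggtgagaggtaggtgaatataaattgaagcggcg
Hsp90b1, chr10:86705395-86705694, minus strand: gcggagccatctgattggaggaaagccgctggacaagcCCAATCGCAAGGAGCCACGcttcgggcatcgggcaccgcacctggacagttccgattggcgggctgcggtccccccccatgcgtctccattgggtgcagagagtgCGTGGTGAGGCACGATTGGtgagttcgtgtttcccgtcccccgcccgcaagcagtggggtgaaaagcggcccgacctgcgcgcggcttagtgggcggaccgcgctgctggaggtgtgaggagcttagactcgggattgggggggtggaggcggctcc

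Hsp90b1 carries 2 copies of the element, 1 on each strand, with their first bases 212 and 107 bases before the start, while Pdia6 and Calr carry 1 each. The changes of the 10 holders ran from 1.92 in Canx to 7.66 in Derl3, a range that includes the list median of 3.01.

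Genes of entry into the ER rose. Sec61a1, the channel through which new proteins enter, had 651, 632 and 654 RPKM in the plasma cell libraries, against 58.7, 38.4 and 41.9 RPKM in the naive libraries. The signal sequence receptor subunits Ssr3 and Ssr2 rose by 4.92 and 4.01, and Spcs3, of the signal peptidase, by 4.56. Rpn1 and Stt3a are subunits of the complex that attaches N-glycans. Rpn1 rose to 930.1 ± 29.7 RPKM in plasma cells, against 45.7 ± 1.54 RPKM in naive B cells, and Stt3a rose to 789 ± 7.94 RPKM in plasma cells, against 55.5 ± 4.38 RPKM in naive B cells. Tusc3, an alternative oxidoreductase subunit of that complex, was the member that fell, to 6.58 ± 0.972 RPKM in plasma cells, against 13.04 ± 4.87 RPKM in naive B cells, with overlapping libraries and a call that was lost under quantile normalization and without naive replicate 1, naive replicate 3 or any 1 plasma cell library, while its relative Magt1 rose by 3.03. Of the coat genes of vesicles that leave the ER, Sec24d had 233, 234 and 243 RPKM in plasma cells, against 5.40, 2.98 and 3.32 RPKM in naive B cells. Its relatives Sec24a and Sec24c rose by 2.54 and 1.29, while Sec24b had 16.5 ± 2.09 RPKM in plasma cells, against 21.98 ± 4.47 RPKM in naive B cells, and was not called (adjusted p = 0.119). The cargo receptor Lman1 rose by 4.90, and its partner Mcfd2 by 3.04. The receptors that return escaped chaperones, Kdelr2 and Kdelr3, rose by 3.88 and 4.09, Kdelr3 with 2 naive libraries listed at 0.

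**Figure D4:**
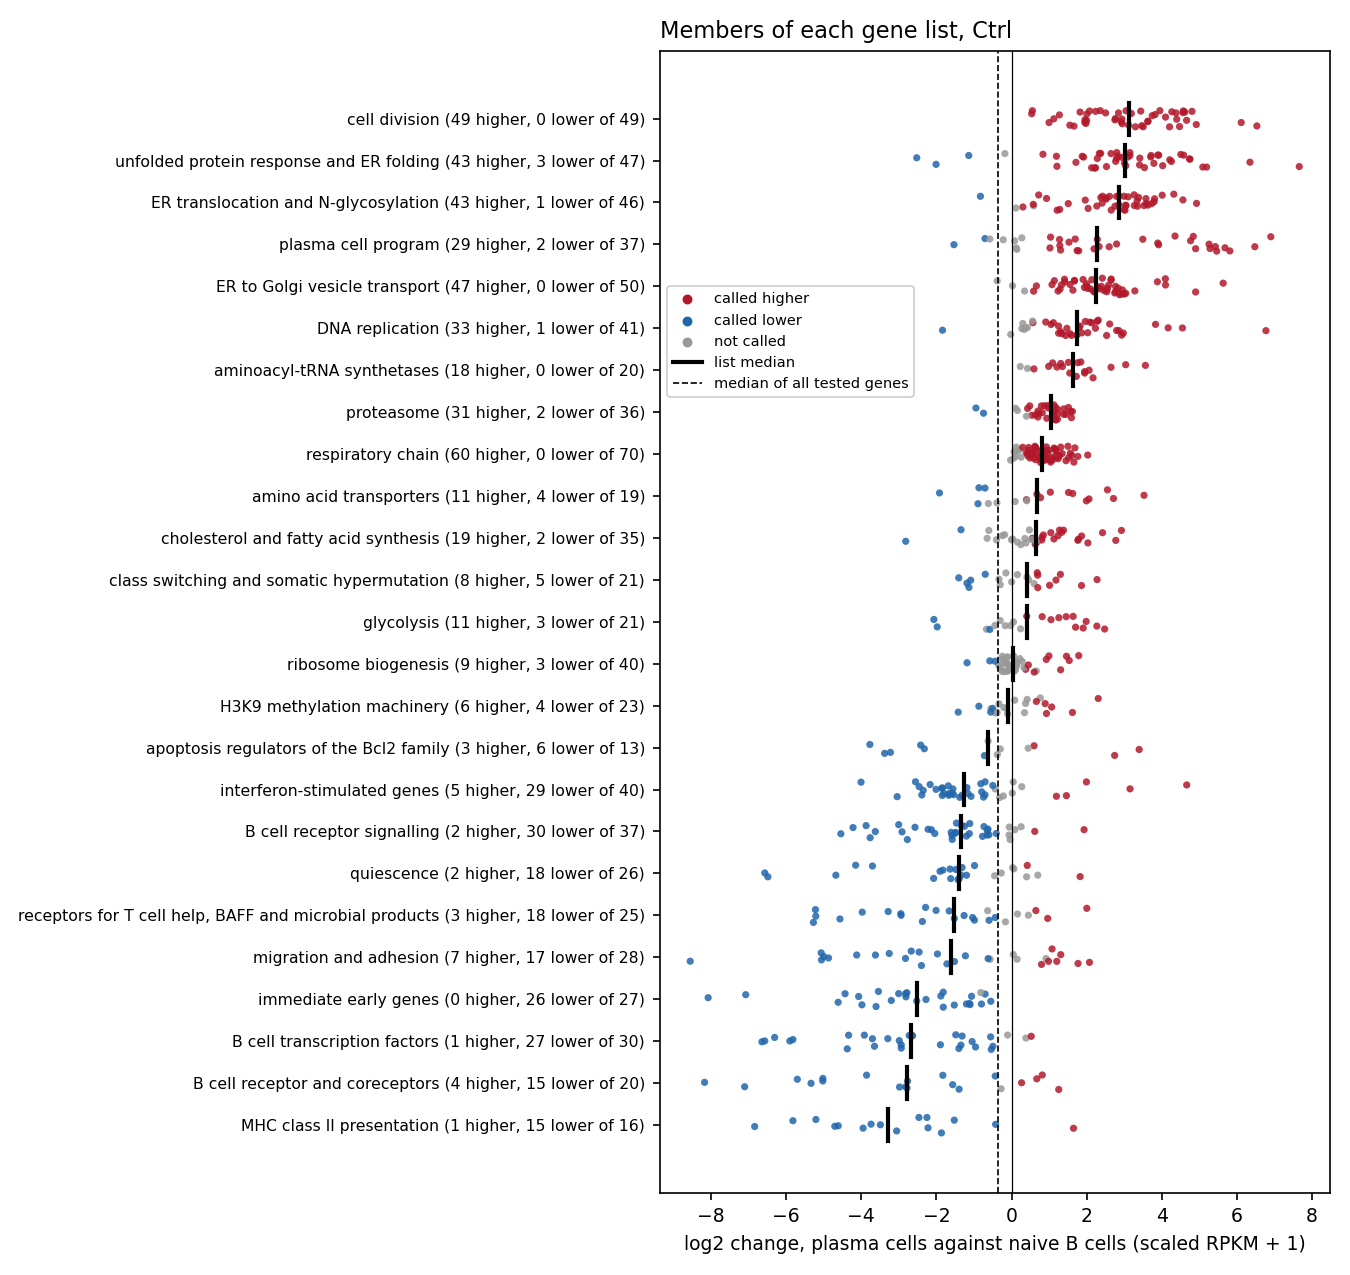
Log2 change of plasma cells against naive B cells for every tested member of each gene list, with list medians (thick bars), the median of all tested genes (dashed, -0.37) and n = 3 libraries per group. Cell division and the secretory lists lie almost wholly to the right, MHC class II and B cell factors to the left, and ribosome biogenesis is centred near 0 with a median of 0.04.

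Transcription factors of the B cell state fell. Of 30 listed factors, 27 fell, 1 rose and 2 were not called, with a median change of -2.69. Pax5, the factor that commits cells to the B lineage, had levels of 0.258, 0.426 and 0.306 RPKM in plasma cells and of 41.8, 25.6 and 17.3 RPKM in naive B cells. All 3 plasma cell values were near 0, and the naive values spread more than 2-fold (log2 change -4.37 ± 0.33 SE, adjusted p = 7.31e-06). Bach2, which delays plasma cell differentiation, had 0.449, 0.362 and 0.319 RPKM in the plasma cell libraries, against 19.4, 15.3 and 16.2 RPKM in the naive libraries. Bcl6, the germinal centre repressor, fell to 0.548 ± 0.304 RPKM in plasma cells, against 29.9 ± 2.17 RPKM in naive B cells. Spib, an Ets factor of B cells, had 0.616, 0.678 and 0.861 RPKM in plasma cells, against 189.8, 161 and 162 RPKM in naive B cells, while activated B cells averaged 186 RPKM. Ciita, the master activator of MHC class II, had levels of 0.208, 0.246 and 0.434 RPKM in plasma cells and of 92.1, 72.8 and 55.4 RPKM in naive B cells. Id3, an inhibitor of E proteins, fell by 5.90 on the log2 scale, and Hhex, a homeobox factor, by 6.30. Ebf1, which acts with Pax5, fell to 2.69 ± 0.290 RPKM in plasma cells, against 28.3 ± 2.98 RPKM in naive B cells. Ikzf1 (Ikaros), Fli1 and Mef2c fell by 0.56, 0.54 and 0.50 on the log2 scale, and the E protein Tcf3 (adjusted p = 0.0889) and Elf1 (0.454) were not called. The E protein Tcf4 rose by 0.52, a call that was lost under quantile normalization and with RPKM as deposited, which left 0 factors higher.

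The B cell receptor and most of its coreceptors fell. Cd79a, a signalling chain of the receptor, fell to 768 ± 101 RPKM in plasma cells, against 2012 ± 89.9 RPKM in naive B cells. Its partner Cd79b fell to 554 ± 69.3 RPKM in plasma cells, against 1636 ± 114 RPKM in naive B cells. Cd22, an inhibitory coreceptor, had 0.905, 0.807 and 0.868 RPKM in the plasma cell libraries, against 279.9, 243 and 242 RPKM in the naive libraries. Fcer2a (CD23), the low-affinity IgE receptor, had 0.236, 0.363 and 0.391 RPKM in plasma cells, against 431, 422 and 305 RPKM in naive B cells, and Siglecg and Cd72, 2 further inhibitory receptors, fell by 5.70 and 5.34 on the log2 scale. Activated B cells still averaged 214 RPKM of Cd22. Of 20 genes of this list, 15 fell (75%, against 41.4% of all tested genes). Cd24a, Fcgr2b, Cd81 and Cd52 rose, by 0.27 in Cd52 to 1.26 in Cd24a, while 2 rose under quantile normalization. The higher share of 20% was near the 22.0% of all tested genes. Of 37 genes of receptor signalling, 30 fell (81.1%), 2 rose (5.41%) and 5 were not called, with a median of -1.34. Ptpn6 (SHP-1), the phosphatase recruited by inhibitory receptors, fell to 33.1 ± 4.28 RPKM in plasma cells, against 497 ± 47.98 RPKM in naive B cells. Rasgrp2, an activator of Rap1, fell by 4.54 on the log2 scale, Hvcn1, a proton channel, by 4.22, and Blk, a Src family kinase, by 3.63. Syk and Btk, kinases next to the receptor, fell by 0.63 and 0.41 on the log2 scale. Blnk, the adaptor between them, rose to 376 ± 14.96 RPKM in plasma cells, against 246 ± 30.98 RPKM in naive B cells, and the phosphatase Ptpn22 rose to 82.2 ± 3.55 RPKM in plasma cells, against 20.9 ± 2.60 RPKM in naive B cells.

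Of 16 genes of antigen presentation on MHC class II, 15 fell, with a median of -3.27. H2-Oa, a subunit of the H2-O modulator of peptide loading, had levels of 0.691, 0.570 and 0.715 RPKM in plasma cells and of 180.3, 208 and 178 RPKM in naive B cells. H2-DMb2, of the peptide loading chaperone H2-DM, fell to 22.2 ± 5.74 RPKM in plasma cells, against 841 ± 86.6 RPKM in naive B cells. The classical chains kept more message. H2-Aa fell to 188 ± 22.1 RPKM in plasma cells, against 2119.6 ± 130.4 RPKM in naive B cells. H2-Ab1 fell to 657 ± 108 RPKM in plasma cells, against 3617 ± 455 RPKM in naive B cells. Cd74, the invariant chain, fell to 2381 ± 273 RPKM in plasma cells, against 8686 ± 1101 RPKM in naive B cells. In both groups Cd74 was the most abundant message of the list. Lgmn, a lysosomal protease, rose to 167 ± 4.56 RPKM in plasma cells, against 52.7 ± 3.60 RPKM in naive B cells.

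Receptors for outside signals fell in 18 of 25 genes (72%, against 41.4% of all tested genes), rose in 3 (Tlr2, Ly96 and Ifnar2) and were not called in 4. Cd40, which receives T cell help, had 2.65, 3.11 and 2.27 RPKM in the plasma cell libraries, against 148, 133 and 126 RPKM in the naive libraries. Il10ra, Icosl and Tlr1 fell by 5.27, 5.21 and 4.57 on the log2 scale, and Il4ra by 3.97. Tnfrsf13c (BAFF receptor) fell by 0.43 on the log2 scale, to 91.7 ± 5.18 RPKM in plasma cells, against 124 ± 3.91 RPKM in naive B cells, while its relatives in the plasma cell list, Tnfrsf17 and Tnfrsf13b (TACI), rose by 3.91 and 1.79. Of the LPS receptor, Tlr4 averaged 4.71 ± 0.745 RPKM in plasma cells, against 4.09 ± 0.0983 RPKM in naive B cells, and was not called (adjusted p = 0.58), whereas its partner Ly96 (MD-2) rose to 67 ± 6.91 RPKM in plasma cells, against 17.1 ± 7.93 RPKM in naive B cells. The B cell LPS sensor pair Cd180 and Ly86 (MD-1) fell, and Ly86 had 41.02 ± 4.47 RPKM in plasma cells, against 322 ± 28.02 RPKM in naive B cells.

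In the migration and adhesion list of 28 measured genes, 17 fell (60.7%, against 41.4% of all tested genes) and 7 rose (25%, against 22.0% of all tested genes). Ccr7, the receptor that guides naive cells to T cell zones (chr11:99144196-99155077), had 0.632, 0.173 and 0.560 RPKM in plasma cells, against 472, 701 and 474 RPKM in naive B cells, log2 change -8.55 ± 0.21 SE, adjusted p = 2.68e-08. Its 3 plasma cell values were under 1 RPKM. Cxcr5, the receptor for B cell follicles, had levels of 7.05, 7.88 and 6.93 RPKM in plasma cells and of 137, 161 and 132 RPKM in naive B cells. Gpr183 (EBI2) and S1pr1, which position and release cells, fell by 3.62 and 3.25 on the log2 scale. Cxcr4, known for homing to bone marrow, fell to 34.03 ± 6.69 RPKM in plasma cells, against 114 ± 15 RPKM in naive B cells, with activated B cells lower still at 11.8 RPKM. Selplg, the ligand of P-selectin, rose to 98.1 ± 7.83 RPKM in plasma cells, against 22.6 ± 3.28 RPKM in naive B cells. Cd44, an adhesion receptor for hyaluronan, rose to 55.7 ± 7.88 RPKM in plasma cells, against 15.5 ± 1.03 RPKM in naive B cells, and the integrin genes Itga4, Itgal, Itgb2 and Itgb1 rose by 0.80 in Itgb1 to 1.20 in Itga4. Itgb7, which pairs with Itga4, fell by 5.07 on the log2 scale.

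All 49 measured genes of cell division rose, with a median of 3.12, and 47 were called under quantile normalization and with RPKM as deposited. Ube2c, the E2 enzyme that feeds the anaphase-promoting complex, had 288, 278 and 294 RPKM in the plasma cell libraries, against 4.51, 0.748 and 2.14 RPKM in the naive libraries. Ccna2 (cyclin A2) had 148, 132 and 139 RPKM in plasma cells, against 0, 2.20 and 1.63 RPKM in naive B cells. Mki67, the gene of the Ki-67 antigen, had levels of 70.7, 64.9 and 73.1 RPKM in plasma cells and of 1.37, 1.63 and 1.04 RPKM in naive B cells. Activated B cells averaged 252, 164 and 48.2 RPKM of Ube2c, Ccna2 and Mki67. The summed level of the 49 genes was 2470 ± 69 RPKM in plasma cells and 241 ± 21 RPKM in naive B cells (SD, n = 3 each), and 2901 ± 331 RPKM in activated B cells. Of 41 genes of DNA replication, 33 rose and 1 fell (median 1.74). Rrm2, a subunit of ribonucleotide reductase, had 427, 437 and 424 RPKM in the plasma cell libraries, against 5.69, 1.74 and 2.34 RPKM in the naive libraries. Mcm6, of the replicative helicase, rose to 134 ± 12.6 RPKM in plasma cells, against 21.05 ± 0.532 RPKM in naive B cells. Pold1, the catalytic subunit of polymerase delta, was the member that fell, to 22.8 ± 2.82 RPKM in plasma cells, against 83.6 ± 4.37 RPKM in naive B cells. Because the libraries are bulk samples, fewer cells of a type and less RNA per cell cannot be told apart, so these values do not give the share of dividing cells.

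Genes of quiescence fell in 18 of 26 cases (69.2%, against 41.4% of all tested genes). Only 2 rose, Mxd4 and Ccng2 (1 without naive replicate 3 or any 1 plasma cell library). Klf2, which keeps lymphocytes resting and circulating, had 4.64, 7.65 and 5.89 RPKM in plasma cells, against 583, 726 and 674 RPKM in naive B cells. Btg1, an antiproliferative factor, had levels of 2.62, 1.64 and 2.43 RPKM in plasma cells and of 275, 305 and 278 RPKM in naive B cells. Tsc22d3 (GILZ) fell by 4.67 on the log2 scale and Pik3ip1, an inhibitor of PI3 kinase, by 4.15. The cell cycle inhibitor Cdkn1b (p27) fell to 3.91 ± 0.290 RPKM in plasma cells, against 12.5 ± 3.65 RPKM in naive B cells. Btg2 averaged 141 ± 39.9 RPKM in plasma cells, against 133 ± 26.8 RPKM in naive B cells, and was not called (adjusted p = 0.823), and Mxd4, an antagonist of Myc, rose to 63.1 ± 7.94 RPKM in plasma cells, against 17.3 ± 3.97 RPKM in naive B cells.

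Immediate early genes, which cells switch on within minutes of a signal or of handling, fell in 26 of 27 cases, all but Egr2, with a median of -2.52. Nr4a1 (Nur77), known as a reporter of receptor signalling in B cells, had 0.504, 0.346 and 0.298 RPKM in the plasma cell libraries, against 501, 330.0 and 308 RPKM in the naive libraries. Atf3 had 0.137, 0 and 0.808 RPKM in plasma cells, against 210.4, 186 and 126 RPKM in naive B cells, and activated B cells averaged 4.95 RPKM. Junb, an AP-1 subunit, fell to 60.03 ± 8.44 RPKM in plasma cells, against 714 ± 139 RPKM in naive B cells. Cd69, an activation marker, fell to 16.9 ± 0.893 RPKM in plasma cells, against 284 ± 41.2 RPKM in naive B cells. Myc, a driver of growth, fell to 10.2 ± 1.21 RPKM in plasma cells, against 88.6 ± 4.36 RPKM in naive B cells. Egr1 had levels of 17.9, 32 and 19.9 RPKM in plasma cells and of 233, 94.9 and 65.2 RPKM in naive B cells, with the naive libraries spread more than 3-fold. Fos and Jun fell by 1.20 and 0.70 on the log2 scale and kept over 100 RPKM in every plasma cell library. The Jun groups overlapped. The naive cells were taken with beads and the plasma cells by sorting, and the part of the isolation in these levels cannot be told apart from that of cell type and LPS.

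Metabolic lists had smaller median changes. For comparison, 22.0% of all tested genes rose and 41.4% fell. In the respiratory chain 60 of 70 nuclear genes rose and 0 fell, with a median of 0.82. Under quantile normalization 40 rose and 2 fell. Atp5b, the beta subunit of ATP synthase, had 975, 983 and 959 RPKM in the plasma cell libraries, against 338, 438 and 449.9 RPKM in the naive libraries. Ndufa1, of complex I, rose by 2.03, the largest change of the list. In glycolysis 11 of 21 genes rose and 3 fell (Slc2a3, Hk1 and Ldhb), or 5 with RPKM as deposited. Pkm, pyruvate kinase, rose to 334 ± 11.8 RPKM in plasma cells, against 102 ± 7.92 RPKM in naive B cells. Hk2, hexokinase 2, rose to 16.4 ± 4.60 RPKM in plasma cells, against 2.07 ± 0.339 RPKM in naive B cells, while the glucose transporter Slc2a3 fell to 2.15 ± 0.556 RPKM in plasma cells, against 13.6 ± 8.84 RPKM in naive B cells. In sterol and fatty acid synthesis 19 of 35 genes rose and 2 fell, Acaca and Scd1. Fdps, of the mevalonate pathway, rose to 134 ± 6.93 RPKM in plasma cells, against 19.6 ± 7.11 RPKM in naive B cells, and Scd1, a desaturase, fell to 19 ± 1.94 RPKM in plasma cells, against 141 ± 28.4 RPKM in naive B cells, while its relative Scd2 rose by 1.05.

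Of 20 cytosolic aminoacyl-tRNA synthetases, which load amino acids on tRNA, 18 rose and 0 fell (median 1.64), led by Yars and Nars. Yars rose to 188 ± 2.21 RPKM in plasma cells, against 15.3 ± 3.79 RPKM in naive B cells. Nars rose to 331 ± 0.822 RPKM in plasma cells, against 40.3 ± 11.1 RPKM in naive B cells. Of 19 amino acid transporters 11 rose (57.9%, against 22.0% of all tested genes) and 4 fell (21.1%, against 41.4%), namely Slc7a11, Slc38a7, Slc36a1 and Slc15a4. Under quantile normalization 1 fell, and without plasma cell replicate 1 or 3 it was 2. Slc7a5 and Slc3a2 form the large neutral amino acid carrier. Slc7a5 rose to 102 ± 15.5 RPKM in plasma cells, against 8.20 ± 3.12 RPKM in naive B cells, and Slc3a2 rose to 184 ± 4.95 RPKM in plasma cells, against 64.02 ± 5.99 RPKM in naive B cells. In ribosome biogenesis the share of higher genes was near that of all tested genes, and the share of lower genes was below it. Of its 40 genes 9 rose, 3 fell (Nop56, Rrp9 and Nip7, or 6 genes without naive replicate 1) and 28 were not called. The share was 22.5% higher, against 22.0% of all tested genes, and 7.5% lower, against 41.4%. Ncl, nucleolin, averaged 50.4 ± 2.72 RPKM in plasma cells, against 43.3 ± 5.10 RPKM in naive B cells, and was not called (adjusted p = 0.198). Of 36 proteasome genes 31 rose and 2 fell, with a median of 1.04. Psmb5, a catalytic subunit, rose to 242 ± 22.6 RPKM in plasma cells, against 79.6 ± 9.34 RPKM in naive B cells. Of its interferon-induced relatives, Psmb10 fell to 58.6 ± 8.74 RPKM in plasma cells, against 114 ± 15.4 RPKM in naive B cells. Psmb9 averaged 332 ± 26.7 RPKM in plasma cells, against 256 ± 61.2 RPKM in naive B cells, and was not called (adjusted p = 0.071), and Psmb8 rose by 0.54. The activator subunit Psme1 fell to 159.7 ± 14.4 RPKM in plasma cells, against 269 ± 36.5 RPKM in naive B cells.

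Of 23 genes of the H3 lysine 9 methylation machinery (enzymes and proteins that read or bind the mark), 6 rose, 4 fell (Cbx1, Kdm3a, Kdm3b and Kdm4a) and 13 were not called, with a median of -0.11. The higher share of 26.1% was near the 22.0% of all tested genes, and the lower share of 17.4% was below their 41.4%. The lower genes numbered 2 under quantile normalization and 1 without plasma cell replicate 1 or 3. Ehmt2 (chr17:34898469-34914052) had 17.5, 16.1 and 17.6 RPKM in plasma cells, against 27.4, 16.5 and 13.7 RPKM in naive B cells, and was not called (log2 change -0.11 ± 0.25 SE, adjusted p = 0.726). The naive range enclosed all 3 plasma cell values. Without naive replicate 1 the change turned to 0.17 and was not called either. In KO libraries Ehmt2 averaged 13.7 ± 1.3 RPKM in plasma cells and 16.9 ± 5.4 RPKM in naive B cells (SD, n = 3 each), a level over the whole gene that does not measure the deleted part and so does not check the genotype labels. Its partner Ehmt1 (GLP) averaged 8.13 ± 2.28 RPKM in plasma cells, against 12.7 ± 4.77 RPKM in naive B cells, and was not called (adjusted p = 0.167). Uhrf1, which reads H3K9 methylation at replicating DNA and is also in the replication list, rose to 47.1 ± 4.39 RPKM in plasma cells, against 8.69 ± 0.205 RPKM in naive B cells, and Suv39h1, a trimethylase, rose to 25.1 ± 2.40 RPKM in plasma cells, against 7.53 ± 1.14 RPKM in naive B cells. Among demethylases Kdm3b fell to 3.54 ± 0.236 RPKM in plasma cells, against 11.3 ± 2.42 RPKM in naive B cells, and Kdm1a and Phf8 rose by 0.89 and 0.93, the Kdm1a call being lost under quantile normalization (adjusted p = 0.0573) and the Phf8 call with the replicate block (0.0762).

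The same contrast in KO mice used 6 other libraries. Of 12115 tested genes 2768 were higher in KO plasma cells (22.8%) and 3566 were lower (29.4%), 52.3% in all. Without plasma cell KO replicate 1 or 3, 2340 or 2339 genes were lower. Among the 12006 genes tested in both genotypes, 2261 were higher in both, which was 81.9% of the 2761 higher genes of KO and 81.5% of the 2775 higher genes of Ctrl. Lower in both were 2970 genes, 84.2% of the 3528 lower genes of KO and 63.7% of the 4661 lower genes of Ctrl. Genes called in opposite directions numbered 3 among those higher in Ctrl and 9 among those lower in Ctrl. All 15 named genes that rose most and all 15 that fell most were called in the same direction in KO. The lists followed, with 29 of 37 plasma cell program genes, 43 of 47 UPR genes and 49 of 49 cell division genes higher in KO, and 27 of 30 B cell factors and 15 of 16 MHC class II genes lower.

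**Figure D5:**
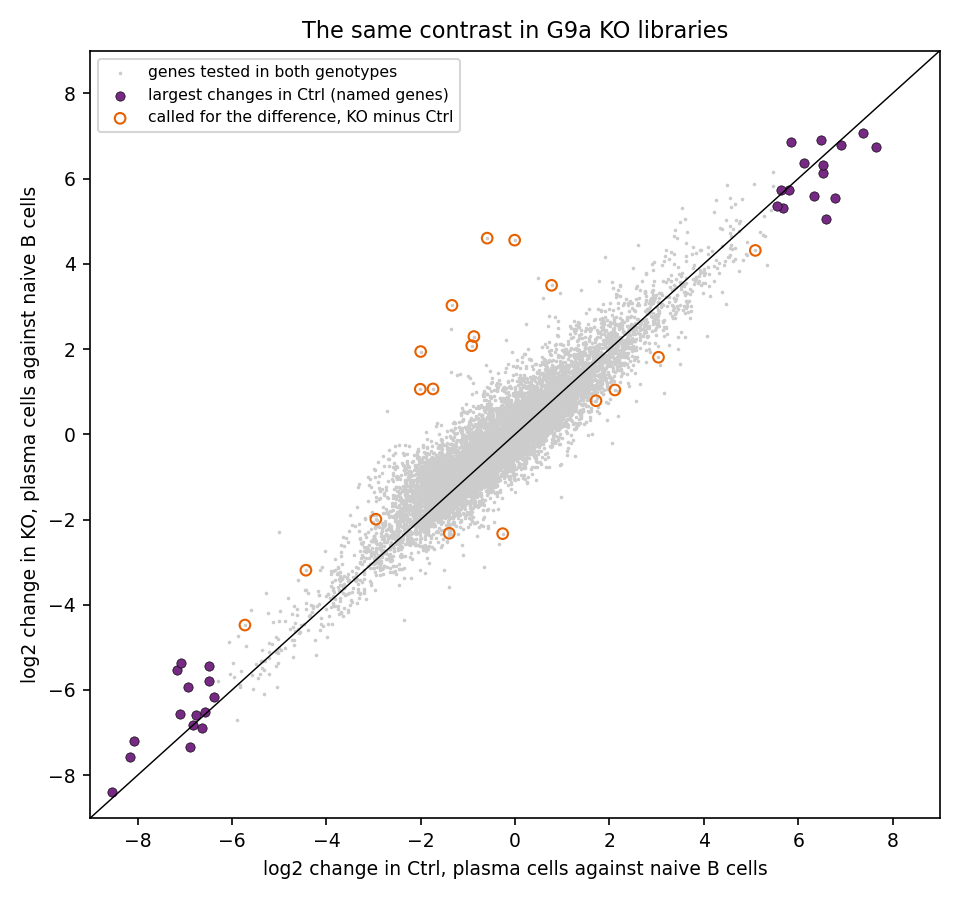
Log2 change of plasma cells against naive B cells in KO libraries (vertical axis) and in Ctrl libraries (horizontal axis), 1 point per gene tested in both genotypes, n = 3 libraries per group. The 30 named genes with the largest changes (purple) lie in the same quadrants in both genotypes, and 18 of the 23 genes called for the difference (orange rings) are among the genes shown.

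The difference of the contrast between genotypes, KO minus Ctrl, was called for 23 of 12755 genes (0.180%), 17 with a positive (0.133%) and 6 with a negative (0.0470%) difference, and 1358 genes had an unadjusted p under 0.05. The count depended on single libraries and on the fit. Without naive KO replicate 2 it was 184 positive and 54 negative, without naive Ctrl replicate 1 it was 17 and 11, and without any 1 of the 6 plasma cell libraries it was 2 to 9 and 1 to 3. Sdf2l1 and Mcfd2 of the secretory lists had negative differences. Sdf2l1 rose by 4.31 in KO and by 5.09 in Ctrl (difference -0.78, adjusted p = 0.0296), and Mcfd2 by 1.81 in KO and 3.04 in Ctrl (difference -1.23, adjusted p = 0.0124). Vpreb3, a protein that binds new immunoglobulin chains in the ER, had means of 35.4 RPKM in KO plasma cells and 185 RPKM in KO naive B cells, against 150.0 RPKM in Ctrl plasma cells and 183 RPKM in Ctrl naive B cells. It was the only 1 of the 10 named genes of the difference that kept its call under every alternative run. The 143 secretory genes took 11.8% ± 0.20 of the summed RPKM of KO plasma cells and 1.94% ± 0.03 of that of KO naive B cells (SD, n = 3 each), against 12.9% ± 0.33 in Ctrl plasma cells and 1.88% ± 0.03 in Ctrl naive B cells.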

How the data were processed

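RNA was measured in 18 mouse spleen libraries of 6 groups with 3 libraries each, prepared with the SMART-seq v4 and Nextera XT kits per the labels' protocols. The authors deposited 1 table of RPKM values (reads per kilobase of gene, scaled to library size) for 12960 genes. The submitters' processing notes name STAR and mm10, and the counting step and its use of strand are not given in the labels or files. Raw counts were not used here, so depth is estimated only from steps between low values. Of scored values, 38.5% to 40.0% in plasma cells and 35.9% to 43.3% in naive B cells were within 0.1 reads of a whole number. By chance 20% would be, at a depth fixed beforehand. The depth was instead picked for the best match to whole numbers, so these shares do not check it. A count test was therefore not run. The authors' RPKM were scaled by median-of-ratios factors over 8012 genes above 1 RPKM in every library, and log2(scaled RPKM + 1) was fitted with limma 3.58.1 in R 4.3.3, which understates changes of low genes. A gene was tested if it averaged 1 RPKM in 1 of the 2 groups, which left out 314, and was called at a Benjamini-Hochberg adjusted p under 0.05 over all tested genes. Each contrast used its own 6 libraries, and the difference between genotypes used 12. The code was tested on simulated data of the Ctrl contrast, with 11824 tested genes and 100 genes changed at each of 2 sizes. Among tested genes it recovered 44.4% of log2 changes of 1 and 82% of those of 2. The simulation gave 18 false calls, 12.5% of its calls, which is above the threshold of 0.05. It changed a far smaller share of genes than the 63.4% called in the Ctrl contrast. The recovered and false shares therefore do not describe that contrast.

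The comparison, its members and all gene lists were chosen with earlier results of these data known. Genes were named by rule, namely up to 15 rising and 15 falling genes of largest change (called, groups apart, at least 20 RPKM in the higher group, no predicted genes or antigen receptor segments), up to 6 per list with the smallest adjusted p, Ehmt2, Sdc1, Ptprc and Spn, and up to 5 per direction for the difference. Some genes that the rule names are not reported here. Other list members, exceptions among them, were named after their values were seen. Gene positions are from GENCODE on GRCm38 and promoters from RefSeq on GRCm38.p6. Plasma cell and naive replicates share the numbers 1 and 3, but the deviations of same-numbered libraries correlated at 0.009 and -0.024, so the numbers were not taken as pairs. The alternatives were other scalings, pseudocounts, filters and weights, all 18 libraries in the fit, the replicate block and leaving out each library.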

Additional observations from a re-analysis of the deposited data

Results flagged for a closer look

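Of the 23 genes whose change in plasma cells against naive B cells differed between KO and Ctrl libraries by the interaction term in limma, at an adjusted p under 0.05, the 10 named by rule (up to 5 in each direction) are given here. The difference, the log2 change in KO minus that in Ctrl, was 5.19 in Wfdc15a, 4.36 in Afp, 3.17 in Clec2g, 2.75 in Gml2 and 0.96 in Tmsb4x. It was -2.07 in Vpreb3, -1.23 in Mcfd2, -1.08 in D17H6S56E-5, -0.93 in Cd79a and -0.78 in Sdf2l1. Tmsb4x fell in both genotypes, by 1.99 in KO and by 2.95 in Ctrl, and Cd79a fell by 2.32 in KO and by 1.40 in Ctrl. Wfdc15a had means of 27.1 RPKM in KO plasma cells and 0.180 RPKM in KO naive B cells, against 0.112 RPKM in Ctrl plasma cells and 1.19 RPKM in Ctrl naive B cells. Afp, alpha-fetoprotein, had means of 33.8 RPKM in KO plasma cells and 3.46 RPKM in KO naive B cells, against 1.65 RPKM in Ctrl plasma cells and 6.80 RPKM in Ctrl naive B cells. Vpreb3 had means of 35.4 RPKM in KO plasma cells and 185 RPKM in KO naive B cells, against 150.0 RPKM in Ctrl plasma cells and 183 RPKM in Ctrl naive B cells, and of the 10 genes it alone kept its call under every alternative run. Cd79a, a signalling chain of the B cell receptor, had means of 433 RPKM in KO plasma cells and 2167 RPKM in KO naive B cells, against 768 RPKM in Ctrl plasma cells and 2012 RPKM in Ctrl naive B cells. Tmsb4x, thymosin beta 4, which binds actin monomers, had means of 1327 RPKM in KO plasma cells and 5308 RPKM in KO naive B cells, against 565 RPKM in Ctrl plasma cells and 4367 RPKM in Ctrl naive B cells.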

How the results depend on the processing

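Of 210 called named genes, 197 kept call and direction under every alternative and 13 lost the call under at least 1. Of 1152 list counts compared, 1079 stayed within 1.5 times and 73 moved. Lower genes in Ctrl numbered 2714 under quantile normalization, 2843 with a mean of 5 RPKM required and 1301 with 20 RPKM (KO, 1389). Genes with a higher difference in KO numbered 3 under quantile normalization, 8 with a pseudocount of 0.1, 9 with 5 RPKM, 8 with 20 RPKM and 121 with all 18 libraries fitted, and those with a lower difference 10 with 20 RPKM and 56 with all 18 libraries. With the replicate block, although the numbers do not pair the libraries, Ctrl had 2432 higher and 4670 lower genes, and the difference had 7 and 3. Leaving out 1 library gave 2258 to 2964 higher and 4297 to 5392 lower genes in Ctrl, 2071 to 3016 and 2339 to 4379 in KO, and 2 to 184 and 1 to 54 for the difference, most without KO naive replicate 2. Changes that turned sign, with no call in the new direction, were Xcr1 (0.56), Bhlhe41 (0.23) and Clec2g (0.19) under quantile normalization, Wfdc15a (0.21) with the replicate block and Ehmt2, whose change was -0.31 to 0.17 without single libraries. The cause was not tested. Precision is limited by 3 libraries of 1000 cells a group and by the low signal of the naive libraries.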

Other observations

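Of 13 measured regulators of cell death of the Bcl2 family, 3 were higher in plasma cells (23.1%) and 6 lower (46.2%), shares near the 22.0% and 41.4% of all tested genes, with a median change of -0.62. Bcl2l11 (BIM), which promotes death, rose to 58.8 ± 2.33 RPKM in plasma cells, against 4.68 ± 0.459 RPKM in naive B cells. Bcl2l1 (BCL-XL) and Mcl1, which protect cells, rose by 2.74 and 0.60. Bcl2, a further protective gene, fell to 2.15 ± 0.431 RPKM in plasma cells, against 15.8 ± 1.63 RPKM in naive B cells. Pmaip1 (NOXA) and Bax, which promote death, fell by 3.22 and 0.72 on the log2 scale. The other lower members, Bcl2a1a, Bcl2a1b and Bcl2a1d, are near-identical copies between which reads may be split.

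Interferon-stimulated genes were mostly lower, with 29 of 40 lower (72.5%, against 41.4% of all tested genes) and 5 higher and a median of -1.25. The count of lower genes was 19 under quantile normalization and 9 among genes with 20 RPKM or more. The 5 higher genes were Isg15, Isg20, Bst2, Zbp1 and Lgals3bp, the same number under every alternative. Isg20, an exonuclease, rose to 216 ± 25.3 RPKM in plasma cells, against 7.67 ± 1.72 RPKM in naive B cells. Isg15, a ubiquitin-like protein, had levels of 79.7, 84.9 and 84.2 RPKM in plasma cells and of 5.04, 13.2 and 8.76 RPKM in naive B cells. Among 21 genes of class switching and somatic hypermutation 8 were higher (38.1%, against 22.0% of all tested genes) and 5 lower (23.8%, against 41.4%), while 2 were lower under quantile normalization and 5 higher with the replicate block or without plasma cell replicate 1 or 4. Exo1, an exonuclease of mismatch repair, rose to 9.63 ± 1.20 RPKM in plasma cells, against 1.46 ± 1.52 RPKM in naive B cells.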
